A study of Mus musculus with 4 samples.

Results

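The 5p and 3p arms of 3 hairpins, miR-137, miR-33 and miR-384, are 6 of the 1966 miRNA listed in small RNA libraries of mouse cortical neurons. They were selected on the measured difference between genotypes in these same libraries, as hairpins whose 5p and 3p arms were both lower in TgAD than in WT neurons, so that difference is given as a description and carries no test. The cells were primary cortical neurons of E16.5 mouse embryos, kept in serum-free differentiating medium for 5 days in vitro, with no treatment. WT neurons carried no transgene. TgAD neurons carried the APPswe and PSEN1dE9 transgenes of the APP/PS1 line, a model of familial Alzheimer's disease. Its APP, part mouse and part human, has the Swedish change next to the β-secretase cut, its human presenilin 1 lacks exon 9, and the prion promoter restricts both largely to central neurons. Each genotype had 2 libraries. By the study's methods, mouse embryos were kept as separate cultures and genotyped afterwards, and such a culture counted as a biological replicate. The sex of the embryos was not given in the sources used here.

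A miRNA hairpin is cut out of a primary transcript by Drosha and trimmed by Dicer to a duplex of its arms. One arm is usually kept by an Argonaute protein, which it guides to transcripts through its seed, bases 2 to 8 from its 5′ end. Since both arms arise from 1 primary transcript, their joint level can be followed apart from the choice of arm. miR-137 is enriched in brain and acts in neuronal maturation and at the presynaptic terminal. miR-33 lies inside Srebf2, the gene of a transcription factor that raises cholesterol synthesis and uptake, and targets the cholesterol exporter Abca1. miR-384 is enriched in the rodent brain, and its 5p arm has been studied in long-term potentiation.

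The mature sequences, from RefSeq on build GRCm38.p6, are shown with the seed in capitals, because the seed decides which of the 6 arms can share targets with other miRNA.
mmu-miR-137-5p: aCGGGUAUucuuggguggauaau
mmu-miR-137-3p: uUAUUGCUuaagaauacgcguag
mmu-miR-33-5p: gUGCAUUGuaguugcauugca
mmu-miR-33-3p: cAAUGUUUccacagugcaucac
mmu-miR-384-5p: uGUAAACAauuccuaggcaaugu
mmu-miR-384-3p: aUUCCUAGaaauuguucacaau

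The 6 arms have 6 different seeds. Among the 1679 mature miRNA of the RefSeq table, which holds 1675 of the 1966 listed miRNA, 5 of these seeds occur in no other miRNA. The seed of miR-384-5p is that of the miR-30 family and occurs in 4 mature miRNA of the table. The other three are shown for comparison with miR-384-5p, from which they differ after the seed.
mmu-miR-30a-5p: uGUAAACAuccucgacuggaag
mmu-miR-30c-5p: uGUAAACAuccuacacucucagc
mmu-miR-30e-5p: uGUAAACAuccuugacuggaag
The table holds no sequence for miR-30b-5p and miR-30d-5p. Inside miR-33-5p, the letters of its own seed, UGCAUUG, recur from base 13 to base 19. A miRNA that holds its own seed more than once was rare, with 9 of the 1679 (0.536%). The letters of the seed of miR-384-3p, UUCCUAG, lie from base 10 to base 16 of miR-384-5p, the opposite arm, and 4 of the 1679 mature miRNA (0.238%) hold them.

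The hairpins are shown with both mature arms in capitals, to place each arm in its precursor.
Mir137: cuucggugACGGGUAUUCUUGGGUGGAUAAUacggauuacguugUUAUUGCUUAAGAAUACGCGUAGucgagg
Mir33: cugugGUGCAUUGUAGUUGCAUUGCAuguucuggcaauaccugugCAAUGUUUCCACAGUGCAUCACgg
Mir384: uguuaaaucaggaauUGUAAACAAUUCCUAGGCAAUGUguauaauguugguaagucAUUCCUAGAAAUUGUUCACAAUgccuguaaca
Mir137 lies at chr3:118433857-118433929 on the plus strand of GRCm38. In GENCODE M21 it falls in exon 1 of 1 transcript and exon 3 of another of the long noncoding RNA gene Gm26871, and overlaps exon 1 of a further transcript in part. Mir33 lies at chr15:82198122-82198190 on the plus strand, inside the Srebf2 intron that runs from 82197787 to 82199634, which is intron 16 of transcript Srebf2-201. Mir384 lies at chrX:105344282-105344369 on the minus strand and overlaps no other annotated gene, with the noncoding RNA gene 5330434G04Rik 3913 nucleotides away. Each of the 6 mature sequences occurs in 1 hairpin of the RefSeq table, and no other annotated miRNA hairpin overlaps the 3 hairpins on either strand. The nearest hairpin to Mir384 is Mir325, 34713 nucleotides away on the same strand.

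Counted miRNA reads amounted to 2070204 and 2752599 for WT, against 2758525 and 4811010 for TgAD replicates, and 3 reads, the floor taken for detection, correspond to between 0.746 and 1.28 CPM. Levels are in CPM, read counts scaled to a common library total after TMM normalization, a scaling of the libraries by their shared miRNA. The genotype labels were checked against the second deposited table, which holds normalized values. Reads recovered from its column named WT_1 equalled the counts of TgAD replicate 1 for 674 of its 674 miRNA, those from its column WT_2 equalled the counts of WT replicate 1, and those from its column TR_1 equalled the counts of TgAD replicate 2. The reads from its column TR_2 matched none of the 4 count tables, with at most 30 equal values. Genotypes below follow the count tables, whose file names and sample titles match. With these labels DESeq2 placed 151 miRNA past the cutoffs described below, 87 lower and 64 higher in TgAD neurons. These are the counts that the study reported with DESeq2 at the same cutoffs. Values with the columns of the normalized table by name are given after the levels. Of the 5 neuronal marker miRNA, miR-128-3p, miR-138-5p and miR-218-5p had between 2237 and 240174 reads. However, miR-9-5p, encoded at 3 loci, with 2 other annotated hairpins overlapping among these loci, had 0 reads in all 4 libraries. miR-124-3p had between 1 and 7. The summed level of the 5 neuronal markers, mostly miR-128-3p, was 21120 and 35030 CPM in WT and 86100 and 62010 CPM in TgAD libraries. The sum was thus higher in TgAD, where the 6 arms were lower, but the markers did not move together. miR-138-5p had 1654 and 1225 CPM in WT and 1214 and 650.5 CPM in TgAD libraries, lower as the arms were, though not past the cutoffs. miR-218-5p overlapped between genotypes. The part of these markers in the difference of the arms was not tested. The 2 oligodendrocyte, 2 endothelial and 1 hepatocyte markers had 0 reads. Among them, miR-338-3p and miR-126a-3p are overlapped by another annotated hairpin, as miR-9-5p is. The RefSeq table holds no sequence for the others, so an overlap could not be looked up. Neither property goes with 0 reads throughout. miR-451a, also overlapped, had 2595 to 3873 reads, and miR-143-3p, also without a sequence there, had 2051 to 2981. Why these markers had 0 reads was not tested. Since the neuronal marker miR-9-5p had 0 reads too, this does not show that these cells were absent. The summed level of the 5 astrocyte, microglia or myeloid markers was between 743 and 1081 CPM, and that of the 2 smooth muscle or pericyte markers between 718 and 901 CPM, with overlapping genotypes. In these bulk libraries, fewer cells of a type and less RNA per cell cannot be told apart.

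The 6 arms were lower in TgAD neurons by between 0.82 and 1.53 on the log2 scale, that is at 34.7% to 56.5% of their mean CPM in WT neurons. For each of them the highest TgAD library was lower than the lowest WT library, which held for 32.5% of the 496 miRNA that passed the filter on low counts, while 30.6% had both TgAD libraries above the WT libraries. All 6 arms passed that filter. The cutoffs used for calls throughout were 0.6 for the size of the log2 fold change and 0.1 for the Benjamini-Hochberg adjusted p of the edgeR quasi-likelihood test. All 6 arms were past them and lower, against 17.3% of the tested miRNA, and 33.1% were past them in either direction. The choice of the arms fixed these counts. With TMM 86 of the calls were lower and 78 higher. Scaled by total counts instead, which moved the median log2 fold change of all tested miRNA by -0.265, 122 were lower and 43 higher. The arms then lay between -1.76 and -1.09, past the cutoffs as before.

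miR-137-3p, the main arm of its hairpin, was the most abundant of the 6 and had the largest decrease. Its level was 3999 and 4008 CPM in the WT libraries and 1631 and 1150 CPM in the TgAD libraries. The WT libraries were almost equal, while the second TgAD library was well under the first. The means were 4004 ± 6.87 CPM for WT and 1391 ± 340.1 CPM for TgAD (SD, n = 2 each), and the fitted log2 fold change was -1.53 ± 0.233 (SE). In reads, these libraries held 9395, 11671, 4476 and 4626. Leaving out the second TgAD library gave a log2 fold change of -1.27, and leaving out the first gave -1.90. The opposite arm, miR-137-5p, is the minor product of the hairpin. It had 66.8 and 76.9 CPM in WT and 40.8 and 32.1 CPM in TgAD libraries, with no overlap. The fitted log2 fold change was -0.98 ± 0.255 (SE), from 157, 224, 112 and 129 reads. miR-137-5p was no longer past the cutoffs without WT replicate 2 or without TgAD replicate 2, at log2 fold changes of -0.89 and -0.79.

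miR-384-3p was the second most abundant of the 6 arms. It had 514 and 577 CPM in the WT libraries and 302 and 233.5 CPM in the TgAD libraries. As for miR-137-3p, the second TgAD library held the lowest level. Means of 546 ± 44.4 CPM for WT and 268 ± 48.8 CPM for TgAD (SD, n = 2 each) gave a fitted log2 fold change of -1.03 ± 0.215 (SE). miR-384-5p, the arm with the miR-30 seed, had 449 and 439 CPM in WT and 220.1 and 239 CPM in TgAD libraries. Here the libraries of each genotype lay close together, and the second TgAD library was the higher of the pair. Its fitted log2 fold change was -0.95 ± 0.186 (SE), the smallest error of the 6, and stayed between -0.99 and -0.92 when any 1 library was dropped.

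The arms of miR-33, the miRNA of the Srebf2 intron, were the least abundant. miR-33-3p had 37.0 and 34.3 CPM in WT and 20.4 and 19.9 CPM in TgAD libraries. Replicates of each genotype nearly coincided, at 87, 100, 56 and 80 reads. Its fitted log2 fold change, -0.82 ± 0.252 (SE), was the smallest of the 6, and it lost its place past the cutoffs with any 1 of the 4 libraries left out, at log2 fold changes between -0.94 and -0.75, and with DESeq2. miR-33-5p, the arm known for Abca1, had 33.2 and 23.7 CPM in WT and 16.8 and 10.2 CPM in TgAD libraries. Both genotypes were spread widely, and the lowest WT library was only 0.48 above the highest TgAD library on the log2 CPM scale. These levels rest on 78, 69, 46 and 41 reads, and the exact 95% Poisson intervals of the counts, which cover counting error only, ran from 53.7 to 87.3 reads for WT replicate 2 and from 29.4 to 55.6 reads for TgAD replicate 2. Its fitted log2 fold change was -1.09 ± 0.359 (SE), and it was -1.57 without TgAD replicate 1 and -0.72 without TgAD replicate 2. miR-33-5p was no longer past the cutoffs without WT replicate 1 or without TgAD replicate 2.

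**Figure D1:**
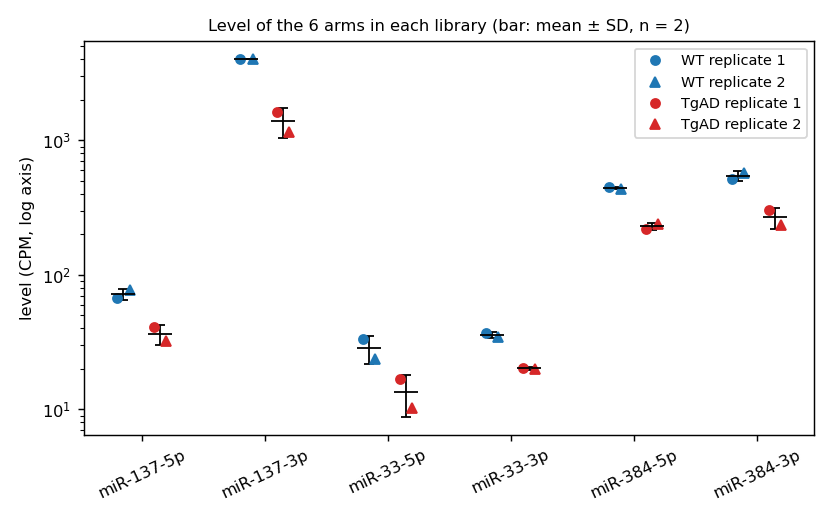
Level of each arm in CPM on a log axis, with circles for replicate 1, triangles for replicate 2, WT in blue and TgAD in red, and black bars for the mean ± SD (n = 2). For every arm both red points lie under both blue points, from 3999 and 4008 against 1631 and 1150 CPM for miR-137-3p down to 33.2 and 23.7 against 16.8 and 10.2 CPM for miR-33-5p.

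In both genotypes the order of the mean levels was miR-137-3p, miR-384-3p, miR-384-5p, miR-137-5p, miR-33-3p and miR-33-5p, for arms of 21 to 23 nucleotides. The neighbours miR-384-3p and miR-384-5p did not overlap in WT but overlapped in TgAD libraries. The other neighbours in the order kept apart in all libraries of a genotype. Between the most and the least abundant arm, miR-137-3p ranked 45 and miR-33-5p ranked 335 among the 496 tested miRNA by mean level. Added up, the 6 arms made 0.579% and 0.546% of all counted reads of WT replicates, and 0.222% and 0.141% of those of TgAD replicates.

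With the columns of the normalized table taken by name, the arms differed less clearly. By the match given above, this grouping puts TgAD replicate 1 beside WT replicate 1 as WT, so it mixes the genotypes of the count tables. miR-137-3p had normalized values of 3903 and 9849 in the WT columns and 2743 and 1458 in the TR columns. miR-384-5p had 527 and 1106 in the WT columns and 571 and 453 in the TR columns, which overlapped. For 4 of the 6 arms both TR columns lay under both WT columns, against 21.7% of the 674 miRNA of that table, and miR-137-5p and miR-384-5p overlapped. The reads recovered from this table, with 100% of values whole within 0.001 read, were tested in the same way as an alternative that was added once the data had been seen. Its log2 fold changes were -1.69 for miR-137-3p, -0.43 for miR-137-5p, -1.42 for miR-33-5p, -1.02 for miR-33-3p, -0.98 for miR-384-3p and -0.65 for miR-384-5p. In that fit 0 of 480 miRNA were past the cutoffs in edgeR's quasi-likelihood test (0% in either direction), and 54 had an unadjusted p under 0.05. No other tool was run on the recovered reads. The column TR_2, which matched no count table, held 808 reads of miR-137-3p, or 419 CPM by the total of its recovered reads, against 961.7 to 4539 CPM in the other columns.

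The hairpins differ in how their reads divide between the arms. In miR-137 the 3p arm held nearly all reads, and the 5p arm took 1.64% and 1.88% of the hairpin's reads in WT and 2.44% and 2.71% in TgAD libraries. The exact 95% binomial intervals of these shares were 1.40% to 1.92% and 1.65% to 2.14% in WT, and 2.01% to 2.93% and 2.27% to 3.22% in TgAD, so the intervals of WT replicate 2 and TgAD replicate 1 overlapped. The 5p share was thus higher in both TgAD libraries, as the 3p arm had the larger decrease. In miR-33 the 5p arm took 47.3% and 40.8% of the reads in WT and 45.1% and 33.9% in TgAD libraries, with overlapping genotypes. The 5p share of miR-384 was 46.6% and 43.2% in WT and 42.1% and 50.6% in TgAD libraries, and the TgAD libraries lay on both sides of the WT libraries. Over the 4 libraries the minor arm held 42.0% of the reads of miR-33 and 45.6% of those of miR-384, ranks 10 and 7 of the 138 hairpins with both arms tested, while the median over these hairpins was 7.99%. For miR-137 the minor arm held 2.02%. With both arms added, miR-137 had 4075 ± 14.0 CPM for WT and 1427 ± 346 CPM for TgAD, miR-384 had 989 ± 37.1 and 498 ± 35.1 CPM, and miR-33 had 64.1 ± 8.62 and 33.6 ± 5.01 CPM (SD, n = 2 each).

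**Figure D2:**
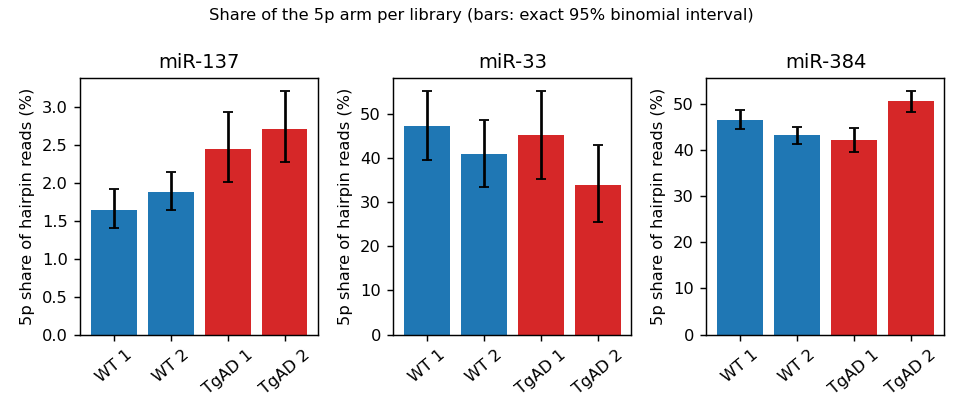
Share of the 5p arm in the reads of each hairpin, in percent, per library, with WT in blue, TgAD in red and exact 95% binomial intervals as error bars. The scales differ between panels: miR-137 lies between 1.64% and 2.71%, miR-33 between 33.9% and 47.3%, and miR-384 between 42.1% and 50.6%.

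Both arms moving together was not the rule in these libraries. Of the 138 hairpins with both arms tested, the log2 fold changes of the arms had the same sign in 73, 36 under 0 and 37 over 0, which is 52.9%. Past the cutoffs, 6 hairpins (4.35%) had both arms lower, 3 had both arms higher, 6 had arms called in opposite directions, and 63 had 1 arm called. The 6 hairpins with both arms lower were the 3 described here and miR-98, a member of the let-7 family, miR-500 and miR-544. Those other hairpins had log2 fold changes of -1.73 and -2.12, -1.80 and -1.51, and -1.42 and -2.26 for the 5p and 3p arms. Just outside this set were miR-376c and miR-376b, whose 5p arms, at -1.01 and -0.62, were not past the cutoffs although their 3p arms, at -1.13 and -0.94, were. Arms of 1 hairpin differed by a median of 0.749 on the log2 scale. They differed by 0.0777 in miR-384, a smaller difference than in all but 5.07% of the hairpins, by 0.267 in miR-33 and by 0.541 in miR-137. The choice on both arms favours small differences, so these are descriptions.

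**Figure D3:**
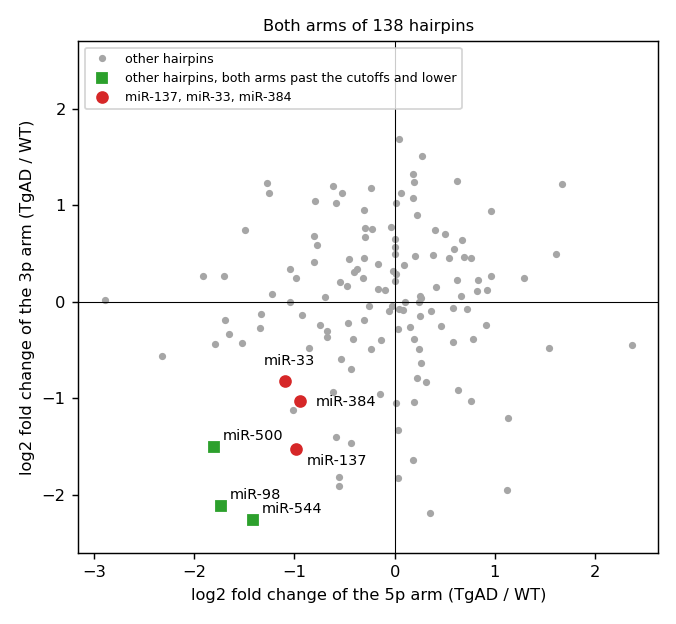
Log2 fold change (TgAD against WT) of the 3p arm against that of the 5p arm for the 138 hairpins with both arms tested, with miR-137, miR-33 and miR-384 in red, the other hairpins with both arms past the cutoffs and lower as green squares, and the rest in grey. The red points lie in the lower left quadrant with 36 hairpins in all, and 65 hairpins have arms of opposite sign.

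The hairpin next to Mir384 on chromosome X gave different values. miR-325-5p had 137 and 118 CPM in WT and 94.4 and 111.9 CPM in TgAD libraries, and miR-325-3p had 70.2 and 111 CPM in WT and 123 and 126 CPM in TgAD libraries. The arms of miR-325 thus lay on different sides of their WT libraries. Their log2 fold changes were -0.30 (standard error 0.222, adjusted p = 0.370) and 0.46 (standard error 0.275, adjusted p = 0.286) by the edgeR quasi-likelihood test with Benjamini-Hochberg correction, neither past the cutoffs, and the difference from miR-384 was not tested. Only with a correction for GC content was miR-325-3p past the cutoffs, at 1.11 (adjusted p = 0.0376 in the same test, in a range of 0.0376 to 0.934 over all alternatives). Its arms added up to 218 ± 16.0 CPM for WT and 228 ± 14.6 CPM for TgAD (SD, n = 2 each).

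The 3 miRNA of the table that share the seed of miR-384-5p were all tested, and 2 of them fell past the cutoffs, against 17.3% of all tested miRNA, with a median log2 fold change of -0.63 against 0.032 over all tested miRNA. miR-30a-5p, among the most abundant miRNA of these neurons, fell from 82943 ± 5996 CPM to 49366 ± 1297 CPM for TgAD (SD, n = 2 each), with a log2 fold change of -0.75 (SE 0.214, adjusted p = 0.0475 in edgeR's quasi-likelihood test). miR-30e-5p fell from 11923 ± 346 to 7688 ± 311 CPM (SD, n = 2 each), with a log2 fold change of -0.63 (SE 0.192, adjusted p = 0.0554 in the same test). In both, the 2 TgAD libraries lay under the 2 WT libraries, as in miR-384-5p, whose own level was far lower. miR-30c-5p, encoded at 2 loci, had 9 and 12 reads in WT and 10 and 12 in TgAD libraries, which is 3.83 and 4.12 against 3.64 and 2.98 CPM. The genotypes did not overlap, but at this depth its log2 fold change of -0.28 (SE 0.446, adjusted p = 0.692 in the same test) was not past the cutoffs. The family members without a sequence in the table were tested too. miR-30b-5p fell from 7713 ± 111 to 3058 ± 810.4 CPM (SD, n = 2 each), with a log2 fold change of -1.33 (SE 0.243, adjusted p = 0.0164 in the same test). miR-30d-5p had 30938 and 44677 CPM in WT and 43025 and 51195 CPM in TgAD libraries, which overlapped, with a log2 fold change of 0.32 (SE 0.262, adjusted p = 0.414 in the same test). The call of miR-30a-5p was lost without either TgAD library, at adjusted p values of 0.108 and 0.155 in the same test. That of miR-30e-5p was lost with any 1 library left out other than TgAD replicate 1, at adjusted p values between 0.1002 and 0.178 in the same test, and with the correction for GC content.

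Of 20 neuron-enriched miRNA, a list that leaves out the 3 hairpins, 16 were tested, and 3 fell and 6 rose past the cutoffs in TgAD neurons, where 17.3% of all tested miRNA were called lower and 15.7% higher, with a median log2 fold change of 0.27 against 0.032 over all tested miRNA. Those that fell were miR-7b-5p (-1.70), miR-181c-5p (-1.05) and miR-488-3p (-0.63), with adjusted p values from edgeR's quasi-likelihood test of 0.0266, 0.0377 and 0.0707. Of those that rose, miR-124-5p (2.47), from a mean of 1.88 CPM in WT, miR-128-3p (1.49) and miR-132-5p (0.96) had the largest increases, with adjusted p values of 0.0164, 0.0294 and 0.0369 in the same test. miR-132 is known as a neuronal miRNA induced by activity. The calls of miR-128-3p and miR-132-5p were lost without TgAD replicate 1, at 1.12 and 0.57, and that of miR-488-3p was lost without WT replicate 2, at -0.48, and without either TgAD library, at -0.72 and -0.61. With the correction for GC content the calls of miR-7b-5p and miR-488-3p were lost, at -0.87 and -0.35 (adjusted p = 0.135 and 0.317 in the same test). Of 11 miRNA known to target Abca1, as miR-33-5p does, 10 were tested, and 1 fell and 3 rose past the cutoffs, beside the same 17.3% lower and 15.7% higher over all tested miRNA, with a median log2 fold change of -0.041. miR-106b-5p fell by 1.91 on the log2 scale (adjusted p = 0.00934 in the same test). Besides miR-128-3p, miR-148a-3p and miR-758-3p rose, with log2 fold changes of 1.18 and 0.83 and adjusted p values of 0.0385 and 0.0276 in the same test. The call of miR-148a-3p was lost without TgAD replicate 2, at 0.80, and that of miR-758-3p without either WT library, at 0.89 and 0.77, and with total counts as library size, at 0.57. These calls are relative to the TMM scaling.

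Among the tested miRNA outside the 3 hairpins, those closest in pattern over the 4 libraries were found by the root mean square difference of log2 CPM, each miRNA centred on its own mean. Closest to miR-137-3p were miR-200c-3p, miR-34c-5p and miR-30b-5p, at differences of 0.0591, 0.0861 and 0.0952. Their own log2 fold changes were -1.75, -1.49 and -1.33. miR-200c-3p rests on only 26 and 36 reads in WT and 12 and 11 in TgAD libraries. Since the arms were chosen as lower in TgAD, miRNA near them in pattern were bound to be lower too. Closest to miR-384-3p were miR-497a-5p, miR-301a-3p and miR-369-3p, between 0.0464 and 0.0806, and closest to miR-33-3p were miR-879-5p, miR-30d-3p and miR-181b-1-3p, between 0.0521 and 0.0838. Among the arms themselves, miR-137-5p and miR-384-3p, from different chromosomes, differed by 0.0343, and none of the other tested miRNA was nearer to miR-137-5p. The arms of 1 hairpin were less alike, with differences of 0.301 in miR-137, 0.293 in miR-33 and 0.193 in miR-384.

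The 6 arms all lay under the median GC content of the tested miRNA, 3 of them at or under 35% and 3 over 40%. Their GC content was 27.3% for miR-384-3p, 34.8% for miR-384-5p and miR-137-3p, 42.9% for miR-33-5p, 43.5% for miR-137-5p and 45.5% for miR-33-3p, a median of 38.8% against 47.8% over the 441 tested miRNA with a sequence (88.9% of those tested). Across these 441 miRNA the log2 fold change rose with GC content, at a Pearson correlation of 0.346, a description over miRNA that share the same 4 libraries. Of the 175 other miRNA within the GC range of the arms, 32.0% were past the cutoffs and lower, with a median log2 fold change of -0.41. Above this range, the share was 6.61% of 257 miRNA and the median 0.245. After each library was corrected for GC content by a local regression, the log2 fold change was -0.79 for miR-137-3p, -0.74 for miR-137-5p, -0.80 for miR-33-5p, -0.71 for miR-33-3p, -0.21 for miR-384-5p and 0.12 for miR-384-3p. After this correction neither arm of miR-384 was past the cutoffs, and 3 of the 6 arms, both of miR-137 and miR-33-3p, stayed past the cutoffs. At the GC content of miR-384-3p the regression rests on few miRNA, since 5 of the 441 lay at or under 30%. The part of GC content in the decrease was not tested further. miR-451a, the main miRNA of red blood cells, moved with the arms too, with 1309 and 1330 CPM in WT and 957 and 645 CPM in TgAD libraries. Its log2 fold change was -0.72 (SE 0.238, adjusted p = 0.07075 in edgeR's quasi-likelihood test), past the cutoffs. With the correction for GC content it was -0.07 (adjusted p = 0.869 in the same test), and the call was lost. The call was also lost without either WT library, at -0.72 each, and without TgAD replicate 2, at -0.43. Without TgAD replicate 1 the log2 fold change was -1.13. The other erythroid markers, miR-144-3p and miR-486a-5p, had at most 3 reads. Another annotated hairpin overlaps that of miR-451a. Its part in the result was not tested.

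**Figure D4:**
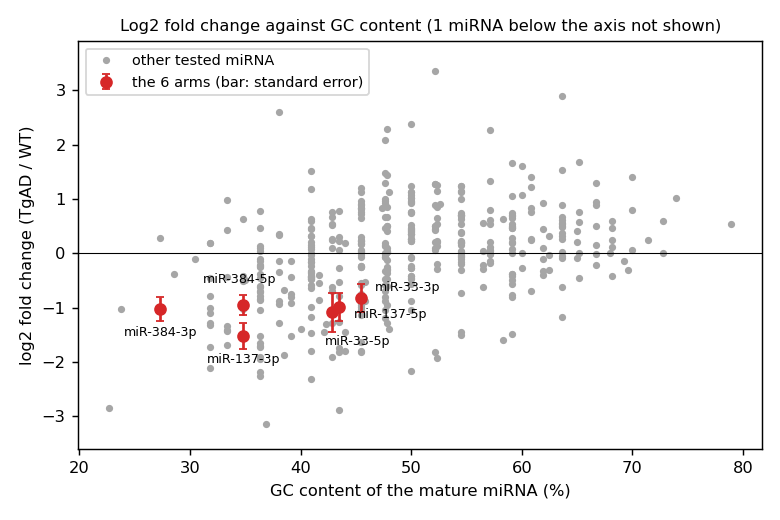
Log2 fold change (TgAD against WT) against the GC content of the mature miRNA in percent for the 441 tested miRNA with a sequence, with the 6 arms in red with their standard errors and 1 miRNA below the axis left out. The arms lie between 27.3% and 45.5% GC and between -1.53 and -0.82, under the median of -0.41 of the other miRNA in this GC range.

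**Figure D5:**
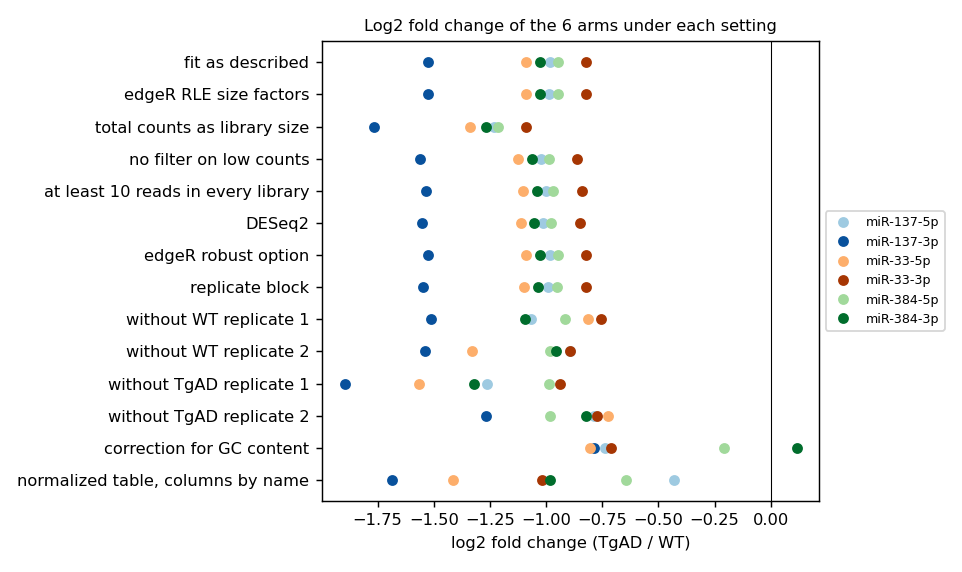
Log2 fold change of each of the 6 arms (TgAD against WT, horizontal axis) under the fit described and each of 13 alternatives, with 1 colour per hairpin and a lighter shade for the 5p arm. Of the 78 values under the alternatives, 77 lie under 0, and the exception is miR-384-3p at 0.12 with the correction for GC content. The choice of the arms in these same libraries largely fixed the sign.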

How the data were processed

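Small RNA of cortical neurons from WT and TgAD embryos (2 libraries each) was analysed. The authors mapped adapter-trimmed 50 bp reads to GRCm38 with Bowtie2 without mismatch, assigned them to mature miRNA of miRBase 22.1 with HTSeq-count, and deposited raw counts per library; tool versions were not given in the sources used here. A second table deposited by the authors holds normalized values, a signal equal to counts divided by a size factor per column, used only in 1 alternative.

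Counts were tested with edgeR 4.0.16 in R 4.3.3 (TMM, filterByExpr, quasi-likelihood test, genotype as the only factor), with Benjamini-Hochberg adjustment over the 496 miRNA left by the filter. A standard error is the log2 fold change divided by the square root of F. Fits with 1 library left out assume that the lone library varies like the other group. DESeq2 1.42.0 was an alternative. An exact permutation test of 2 against 2 libraries cannot go below p = 0.333, so single levels carry no test.

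Sequences and coordinates came from RefSeq (GRCm38.p6) and GENCODE M21. The correction for GC content used loess (span 0.75) of log2 CPM deviations (prior count 2) on the GC content of the mature sequence. The arms and lists were chosen with earlier results of these data known. Named are the 6 arms, miR-325, miRNA that share a seed with an arm, the 3 largest called decreases and increases of each list, the 3 nearest patterns of the main arm of each hairpin, and hairpins with both arms lower; miR-451a, miR-376b, miR-376c, and miR-30b-5p and miR-30d-5p beside the shared seed, were named after their values were seen. Reads carry no molecular identifiers, so intervals cover counting error only.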

Additional observations from a re-analysis of the deposited data

How the results depend on the processing

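Over the 13 alternatives, 77 of the 78 log2 fold changes of the 6 arms were under 0. The arms were chosen as lower in these same libraries, so the choice largely fixed this count. With the correction for GC content, miR-384-3p reversed to 0.12, and 3 of the 6 arms, 3 hairpins with both arms lower, 1 miRNA with the seed of miR-384-5p and 3 higher miRNA of the neuron-enriched list were past the cutoffs. That fit held only the 441 tested miRNA with a sequence. It left out miR-124-5p and another neuron-enriched miRNA that were called higher in the main fit. Scaled by total counts, the split of the calls moved to 122 lower and 43 higher miRNA, from 86 lower and 78 higher, with 15 hairpins with both arms lower, 5 lower neuron-enriched miRNA and 2 lower miRNA of the Abca1 list. With no filter on low counts 5 neuron-enriched miRNA were lower. With the reads recovered from the normalized table, each of these counts of calls was 0. With each library left out in turn, between 3 and 5 arms were past the cutoffs, of between 118 and 143 miRNA, 67 to 89 lower and 47 to 61 higher, with 0 to 1 lower miRNA of the shared seed and 2 to 7 higher neuron-enriched miRNA. Apart from the miRNA that the fit with GC correction left out, the cause of these changes was not tested.

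The labels number the replicates 1 and 2 in each genotype but do not say that a number marks a shared litter or day, and the differences between replicates of the 2 genotypes correlated at 0.216 across the 496 miRNA. With the replicate number as a block, 188 miRNA were past the cutoffs, with 5 neuron-enriched miRNA lower, and all 6 arms were among them, with log2 fold changes between -1.55 and -0.82. Depth limits miR-33 most, with 41 to 100 reads per arm and library.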
